A study of Mus musculus with 6 samples.

Results

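The Ms4a genes encode small proteins of the plasma membrane, and 5 of them (Ms4a1, Ms4a4b, Ms4a4c, Ms4a6b and Ms4a6c) were followed across cell types and library protocols in mouse spleen. They were taken by name, whatever their values, out of 20279 genes with a row in any of 6 single-cell libraries, and all 5 had a row in every library. The samples were labelled as spleen of female mice, and the series text gives C57BL/6 mice of 10 weeks. There were 2 libraries per protocol, numbered replicate 1 and replicate 2: a modified 5′ protocol, the standard 5′ kit and the 3′ kit of 10x Genomics. The modified 5′ protocol differed from the standard 5′ kit by 1 µl of added 10 mM dNTP, by longer extension steps: 2 h against 45 min in reverse transcription, and 3 min against 1 min in amplification. In every library cDNA was sequenced without fragmentation on a Nanopore instrument, and the deposited values are raw counts per gene and cell barcode. The labels name no genotype change and no treatment of the animals in any group.

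After a filter on genes and mitochondrial counts, 861 to 4045 cells per library were kept (15578 in all), with 332 to 606 counts per cell in the median. The standard 5′ replicate 1 library stood apart by depth: it had 723341 counts, against 1570654 to 2627253 in the other libraries, and 34.0% of its barcodes were kept. Haemoglobin genes took 13.4% to 22.3% of counts in the replicate 1 libraries and 0.319% to 0.524% in the replicate 2 libraries. The extraction text of the replicate 2 samples describes pancreatic islets and removal of insulin cDNA, and the series text speaks of 3 islet libraries, both in conflict with the spleen label. Of 11 pancreas markers, 1 or 2 had any count in 5 libraries and 8 in the modified 5′ replicate 2 library, where they summed to 107 counts, while all 8 genes of the B cell list were detected in each library. The libraries were used as labelled. The labels do not say whether the replicates come from separate animals, so a p-value here speaks of the spread among these libraries, part of which may be technical. The replicate number cannot be told apart from the difference in extraction text and in haemoglobin.

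Proteins of the MS4A family cross the membrane 4 times and have both ends in the cytoplasm. The best known is CD20, the product of Ms4a1, which appears on B cells from the pre-B stage, sits close to the B cell receptor, and is lost on most plasma cells. Ms4a4b encodes a mouse protein of T cells that associates with the costimulatory receptor GITR (encoded by Tnfrsf18), whereas the roles of the products of Ms4a4c, Ms4a6b and Ms4a6c are less settled.

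All 5 genes are protein coding and lie within the Ms4a cluster on mouse chromosome 19 (GRCm38, GENCODE M21 annotation). Ms4a1 (ENSMUSG00000024673.9) spans bases 11249675 to 11266241 on the minus strand. On the plus strand follow Ms4a4c (ENSMUSG00000024675.19) at 11404770 to 11427246, Ms4a4b (ENSMUSG00000056290.16) at 11443553 to 11467055, Ms4a6c (ENSMUSG00000079419.4) at 11469366 to 11482192 and Ms4a6b (ENSMUSG00000024677.13) at 11516512 to 11531256. Ms4a4b and Ms4a4c are near copies, with 91.8% identity over the coding sequence and an identical run of 127 bases. Ms4a6b and Ms4a6c have 74.6% coding identity and a longest identical run of 55 bases, and Ms4a1 has 44.8% to 47.4% identity to the other members. For each pair, the coding bases around the longest identical run are shown 5′ to 3′, from GENCODE M21 transcripts, with the bases that differ between the pair in capitals. They are shown because a read that covers only such a stretch has few letters to tell the copies apart. The first pair is coding bases 301 to 467 (167 bases, 7 differences) and the second is coding bases 369 to 463 (95 bases, 4 differences).
Ms4a4b: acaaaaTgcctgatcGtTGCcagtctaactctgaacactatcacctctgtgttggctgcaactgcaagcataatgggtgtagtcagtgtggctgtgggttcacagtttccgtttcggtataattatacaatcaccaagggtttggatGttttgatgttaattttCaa
Ms4a4c: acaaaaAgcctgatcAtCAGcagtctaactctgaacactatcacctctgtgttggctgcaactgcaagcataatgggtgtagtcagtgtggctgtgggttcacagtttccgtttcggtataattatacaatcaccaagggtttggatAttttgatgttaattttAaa
Ms4a6b: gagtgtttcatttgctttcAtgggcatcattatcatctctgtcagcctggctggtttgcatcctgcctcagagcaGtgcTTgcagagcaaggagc
Ms4a6c: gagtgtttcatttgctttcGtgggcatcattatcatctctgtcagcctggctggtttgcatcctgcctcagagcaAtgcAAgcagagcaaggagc

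The transcript end at which a copy can be told from its relatives differs by gene. In the first 500 bases of the transcript, the share of 31-base words found in another gene was 0% for Ms4a1, 15.1% for Ms4a4b, 22.3% for Ms4a4c, 28.3% for Ms4a6b and 21.3% for Ms4a6c. In the last 500 bases it was 0% for Ms4a1, Ms4a4b and Ms4a6b, 20.6% for Ms4a4c, which shared these words with Ms4a4b, and 24.9% for Ms4a6c. How the authors' counting treated such reads, and whether it used strand, is not given in the sources used here. Counts of Ms4a4b against Ms4a4c, and of Ms4a6b against Ms4a6c, are therefore uncertain by an amount that the files do not show.

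Of the 5 genes, 4 matched an entry of the RefSeq promoter table (GRCm38.p6); the other is Ms4a1. The 250 bases before the start sites of Ms4a6b and Ms4a6c share an identical run of 48 bases within 45.8% identity of the whole window, while those of Ms4a4b and Ms4a4c have 68.8% identity and a longest run of 20 bases. The Ms4a6 pair is shown on the plus strand, at chr19:11518309-11518558 for Ms4a6b and chr19:11469118-11469367 for Ms4a6c, because the shared run holds a match to GAAANNGAA, a motif of the interferon regulatory factor type, which is in capitals.
Ms4a6b promoter: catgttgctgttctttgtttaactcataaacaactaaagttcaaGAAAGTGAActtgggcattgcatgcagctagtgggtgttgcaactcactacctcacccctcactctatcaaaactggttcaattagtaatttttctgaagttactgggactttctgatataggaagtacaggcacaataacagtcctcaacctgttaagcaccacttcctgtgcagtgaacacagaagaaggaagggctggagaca
Ms4a6c promoter: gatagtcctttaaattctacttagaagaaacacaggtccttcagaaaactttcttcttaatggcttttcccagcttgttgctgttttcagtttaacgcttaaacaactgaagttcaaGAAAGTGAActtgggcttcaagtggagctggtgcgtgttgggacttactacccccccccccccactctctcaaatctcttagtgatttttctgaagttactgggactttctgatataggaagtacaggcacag
The match lies at -206 to -198 from the start of Ms4a6b and at -133 to -125 from that of Ms4a6c. Searched on both strands, GAAANNGAA occurs in 7.15% of 32536 promoters of this length. Of the other motifs searched, TTCNNNGAA occurs in 7.04% and GAGGAAGT in 2.45% of promoters, and neither has a match in the windows of the 4 genes. The motifs were chosen after these promoters had been seen, and a match describes letters only, since no binding was measured.

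Cells were gated by raw counts of marker lists that hold no Ms4a gene: a cell entered the myeloid, NK, B or T gate with at least 2 counts of that list and none of the other 3 lists. The gates held 398 myeloid, 181 NK, 7118 B and 3143 T cells over the 6 libraries. The rest of the kept cells, 29.3% to 34.0% of a library, met no gate or had counts of several lists. The smallest sum was that of the standard 5′ replicate 1 library, with 18 myeloid, 10 NK, 321 B and 219 T cells. Library pairs shared 0 to 14 kept barcodes.

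Each member had its own order of gates. Ms4a1 was a gene of the B gate, Ms4a4b of the NK and T gates, Ms4a4c of the B and myeloid gates, Ms4a6b of the T and myeloid gates, and Ms4a6c of the myeloid gate. Levels are CPM, the counts of a gene scaled to a common total of all counts of that gate in that library, given as the lowest, median and highest of the 6 libraries. Levels of different members are not set against each other, because counts were not scaled by length. Between gates, edgeR's quasi-likelihood test was run on the 24 library-by-gate sums over 2660 genes, with the library as a block and Benjamini-Hochberg adjustment.

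**Figure D1:**
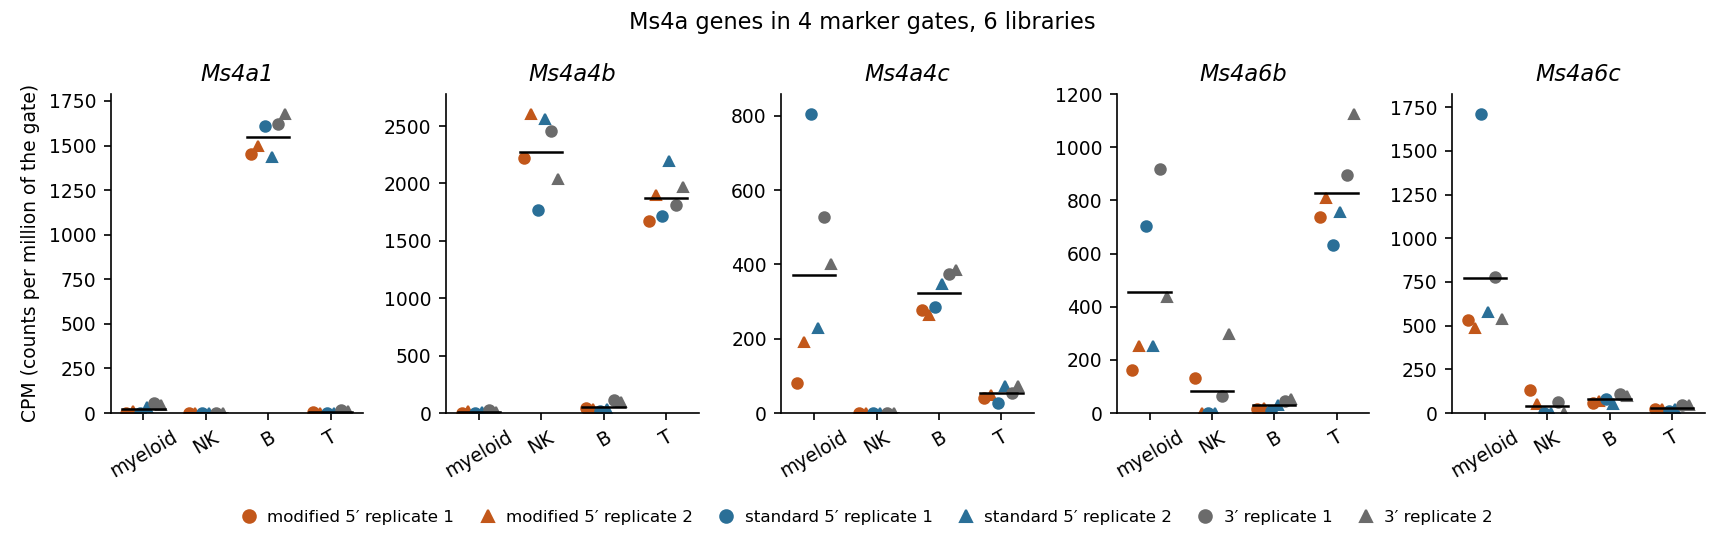
Level of each Ms4a gene in the myeloid, NK, B and T gates of the 6 libraries (y axis, CPM; circles replicate 1, triangles replicate 2, colour the protocol, black line the mean of 6). Ms4a1 is highest in the B gate, Ms4a4b in the NK and T gates, Ms4a4c in the B and myeloid gates, Ms4a6b in the T and myeloid gates, and Ms4a6c in the myeloid gate.

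Ms4a1 in the B gate had levels of 1437, 1553 and 1674 CPM, with a mean of 1549 ± 99.0 (SD, n = 6 libraries). In the T gate its level was 0, 5.47 and 18.8 CPM, from 15 counts in 3143 cells. The B gate lay far above the T gate in all 6 libraries, and the fitted difference was a log2 of 7.56 ± 0.20 (edgeR adjusted p = 4.32e-61). In this comparison 48.9% of all genes tested passed, and all 5 members passed.

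In the NK gate Ms4a1 had 0 counts in 181 cells, which allows a share of positive cells of up to 1.66%. Against the 3-count limit of the pooled NK gate (33.5 CPM), the pooled B level of Ms4a1 (1551 CPM) was at least 46.3-fold higher. The myeloid gate held 11 Ms4a1 counts, with levels of 0, 23.3 and 55.7 CPM, and its difference from the B gate was a log2 of -5.65 ± 0.26 (edgeR adjusted p = 2.4e-39). The pooled level was 30.9 CPM in the myeloid gate and 8.22 CPM in the T gate. In erythroid barcodes, which should lack the gene, it was 17.3 CPM, from 14 Ms4a1 counts in 881 barcodes. These barcodes were set by globin at 50% or more of their counts. Globin thus lowers the CPM of every other gene in them, and 17.3 CPM is no like-for-like background. The part of free RNA in the low levels outside B cells was not tested. The call of Ms4a1 as higher in the myeloid than in the T gate (log2 1.91 ± 0.64, edgeR adjusted p = 0.00951) rested on 11 against 15 counts and was lost in 4 alternatives, with adjusted p from 0.00142 to 0.529 over all of them.

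At least 1 Ms4a1 count was seen in 49.8% ± 5.91 of B gate cells (SD, n = 6), and in 30.0% ± 2.10 after each cell was thinned to 250 counts. B gate cells had median depths of 337 to 546 counts. Erythroid barcodes, with medians of 513 to 1206 counts in the replicate 1 libraries, had a share of 1.02%. Globin makes up 50% or more of the counts of an erythroid barcode, so fewer are left for other genes. The 2 shares are therefore not matched for depth. The B gate held 73.1% to 76.7% of a library's Ms4a1 counts in kept cells and ungated cells held 22.8% to 26.6%. At this depth a cell without a count may still express the gene. Intervals and limits cover counting error only.

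Ms4a4b was the member shared by NK and T cells. Its level was 1773, 2342 and 2602 CPM in the NK gate, against 1671, 1856 and 2195 CPM in the T gate (means 2277 ± 326 and 1877 ± 192, SD, n = 6). The ranges overlapped. The fitted difference between NK and T gates was a log2 of -0.11 ± 0.16 (edgeR adjusted p = 0.753), with 19.4% of all genes passing in this comparison.

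The sign of that small difference depends on scaling. Plain CPM were higher in NK cells, the TMM factors of the NK sums ran from 1.08 to 2.44 against 0.824 to 0.999 for the T sums, and median-ratio size factors gave a log2 of 0.16. Without a low-count filter it was a log2 of -0.67 and passed (adjusted p = 0.00105), and over all alternatives the adjusted p ranged from 0.00105 to 1. Cells with a count of Ms4a4b made up 58.6% ± 10.2 of the NK gate and 59.1% ± 10.3 of the T gate.

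B and myeloid cells had little Ms4a4b. In the B gate its level was 16.3, 41.7 and 114 CPM, with no overlap with NK or T cells. NK cells were higher than B cells by a log2 of 4.80 ± 0.21 (edgeR adjusted p = 9.65e-42, where 29.6% of all genes passed), and B cells were lower than T cells by -4.91 ± 0.16 (adjusted p = 4.12e-56). The myeloid gate had 5 counts in 398 cells, a pooled level of 14.1 CPM. It was 4.95 CPM in erythroid barcodes, where globin lowers the CPM of other genes. Myeloid cells were lower than T cells by a log2 of -7.04 ± 0.33, and than NK cells by -6.93 ± 0.39, both past the edgeR threshold, where 47% and 24.5% of all genes passed. They were also lower than B cells by -2.13 ± 0.59 (edgeR adjusted p = 0.00152), a call that was lost in the replicate 1 libraries alone.

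Ms4a4c had another pattern than its near copy Ms4a4b. Its level was 81.9, 314 and 804 CPM in the myeloid gate, 265, 317 and 385 CPM in the B gate, and 27.0, 50.8 and 73.7 CPM in the T gate. The myeloid and B ranges overlapped (log2 -0.14 ± 0.17, edgeR adjusted p = 0.553, where 43.7% of all genes passed). Both lay above the T gate in each library, by a log2 of 2.44 ± 0.24 for myeloid cells and 2.58 ± 0.14 for B cells (adjusted p = 8.68e-17 and 4.22e-33).

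No Ms4a4c count was found in the 181 NK cells, so each fold is a limit. The pooled B level was at least 9.94-fold, the pooled myeloid level at least 9.16-fold and the pooled T level at least 1.75-fold higher than the 3-count limit in NK cells. The call against T cells was lost without the 3′ replicate 2 library and in the replicate 1 libraries alone. The same 181 NK cells held 210 counts of its near copy Ms4a4b.

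Ms4a6b was found in myeloid cells and, at a higher level in most libraries, in T cells. Its level was 164, 345 and 919 CPM in the myeloid gate, against 634, 783 and 1124 CPM in the T gate. Myeloid cells were lower than T cells by a log2 of -1.13 ± 0.16 (edgeR adjusted p = 2.2e-09), although the ranges overlapped and the 3 replicate 1 libraries alone gave -0.32 without a call. In the standard 5′ and 3′ replicate 1 libraries the myeloid level (704 and 919 CPM) was above the T level of the same library. The 3′ replicate 1 library had the highest myeloid level and the modified 5′ replicate 1 library the lowest, from 33 and 4 counts.

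NK and B cells held little Ms4a6b. The NK gate had 10 counts, 8 of them in the 3′ replicate 2 library, and was lower than the T gate by a log2 of -3.33 ± 0.37 (adjusted p = 1.29e-13). The B gate had levels of 8.16, 24.6 and 54.4 CPM and was lower than the T gate by -4.63 ± 0.14 (adjusted p = 1.03e-57). Myeloid cells were higher than B cells in Ms4a6b by 3.50 ± 0.24 (adjusted p = 2.68e-26), while NK against B cells did not pass (1.30 ± 0.63, adjusted p = 0.116). A count of Ms4a6b was seen in 35.9% ± 10.1 of T cells, and in 18.8% ± 4.08 after thinning.

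Ms4a6c was the member of myeloid cells. Its level was 486, 558 and 1709 CPM in the myeloid gate, 49.5, 76.4 and 110 CPM in the B gate, and 13.5, 24.4 and 49.0 CPM in the T gate. The myeloid gate lay above both in each library, by a log2 of 2.93 ± 0.16 over B cells and 4.26 ± 0.21 over T cells (edgeR adjusted p = 3.43e-33 and 2.39e-38). B cells were also higher than T cells, by 1.33 ± 0.20 (adjusted p = 9.3e-09), in each of the 6 libraries.

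The NK gate had 3 counts of Ms4a6c, its own 3-count limit, and its difference from T cells (log2 -0.32 ± 0.85) did not pass. The difference from B cells did not pass either (-1.65 ± 0.71, edgeR adjusted p = 0.0697), but the call depended on the setting. It passed with 1 count of other classes allowed in the gates (-2.42), without a filter on low counts (-2.18), without the modified 5′ replicate 1 library (-2.14) and in the replicate 2 libraries alone (-2.76), with adjusted p from 0.00181 to 0.712 over all alternatives. Myeloid cells exceeded NK cells in Ms4a6c by 4.58 ± 0.49 and in Ms4a6b by 2.20 ± 0.46 (edgeR adjusted p = 2.93e-14 and 5.75e-05). Because B cells are many, they still held 26.1% to 44.1% of a library's Ms4a6c counts, beside 16.0% to 48.6% in the myeloid gate.

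Within the myeloid gate, the Ms4a6 pair and Ms4a4c were found mainly in monocytes, defined by Ly6c2, Ccr2, Ace, Treml4 or Cd300e without C1q counts. In these 177 cells Ms4a6c had a level of 677, 1182 and 2410 CPM, Ms4a6b 440, 680 and 1682 CPM, and Ms4a4c 144, 567 and 1144 CPM. The 3 replicate 1 libraries had the highest Ms4a6c levels (1582, 2410 and 1548 CPM in the modified 5′, standard 5′ and 3′ libraries, against 677, 817 and 806 CPM in replicate 2). These rest on 10 to 14 cells per replicate 1 library, and the part of the replicate number in them was not tested.

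Other myeloid classes were too small to compare by library. In 42 macrophages (C1q genes), the pooled level was 461 CPM for Ms4a6c, 354 CPM for Ms4a6b and 70.9 CPM for Ms4a4c, from 13, 10 and 2 counts. In the 3′ replicate 1 library, 1 macrophage held 7 of the Ms4a6b counts and 1 held the 2 Ms4a4c counts. In 62 conventional dendritic cells it was 262, 68.3 and 102 CPM, from 23, 6 and 9 counts. Neither class had more than 2 counts of Ms4a1 or any of Ms4a4b.

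**Figure D2:**
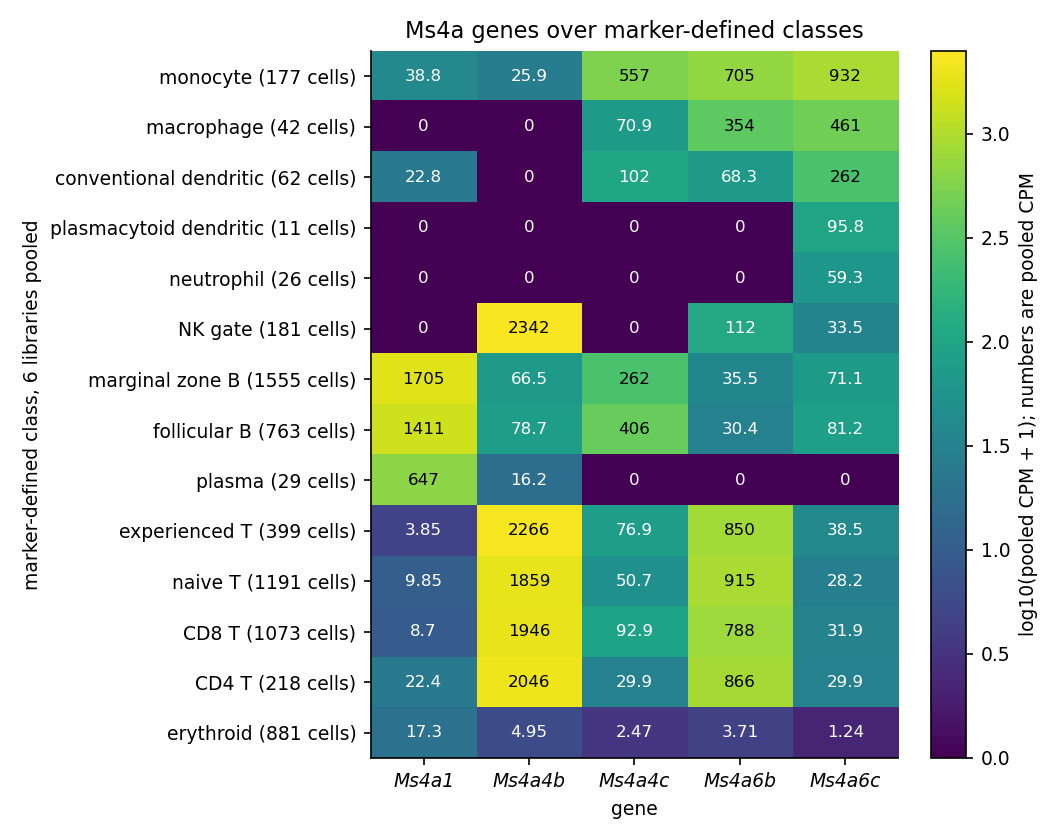
Pooled level (CPM over the 6 libraries, printed in each cell; colour log10 of CPM + 1) of each Ms4a gene in 14 cell classes set by marker counts, to be read down a column. Ms4a6c stands out in monocytes, Ms4a6b in T classes and monocytes, and Ms4a4b in T and NK classes. Ms4a1 stands out in B classes and, at a lower level, in the 29 plasma cells.

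Plasma cells (Jchain with another plasma gene) held 40 Ms4a1 counts in 29 cells, a pooled level of 647 CPM, against 1551 CPM in the B gate. They held 1 count of Ms4a4b and none of Ms4a4c, Ms4a6b or Ms4a6c. Cells with counts of the B list were not excluded from this class, so B cells may be in it. Of its Ms4a1 counts, 15 lay in 3 cells of the standard 5′ replicate 2 library. The 1 plasma cell of standard 5′ replicate 1 and the 1 of 3′ replicate 1 had none. The 26 neutrophils and the 11 plasmacytoid dendritic cells had 1 count of Ms4a6c each and none of the other members, which at 16860 and 10434 counts in all says little. The other members stayed near 0 in erythroid barcodes, with pooled levels of 2.47 CPM for Ms4a4c, 3.71 CPM for Ms4a6b and 1.24 CPM for Ms4a6c. Globin, at 50% or more of the counts of such barcodes, lowers these levels.

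Subsets of T and B cells were compared within libraries, in fits that were added after the values had been seen. Among B cells, 1555 cells called marginal zone (Cr2, Cd9, Dtx1 or Myof, no Fcer2a) were set against 763 called follicular (Fcer2a, none of the others). For either class 1 count was enough, and a cell without an Fcer2a count may still express the gene. Each class may therefore hold cells of the other, and the names stand for these marker counts. Ms4a1 was 1381, 1690, 1548, 1563, 1759 and 1890 CPM in marginal zone cells of modified 5′ replicates 1 and 2, standard 5′ replicates 1 and 2, and 3′ replicates 1 and 2. In follicular cells it was 1243, 1445, 924, 1269, 1375 and 1629 CPM in the same libraries. It was higher in marginal zone cells in 6 of 6 libraries, by a log2 of 0.33 ± 0.09 (edgeR adjusted p = 0.00462, where 10.7% of 1489 genes passed).

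Ms4a4c went the other way. Its level was 152, 186, 231, 218, 375 and 287 CPM in marginal zone cells, against 414, 263, 528, 527, 323 and 469 CPM in follicular cells, in the same order of libraries. It was lower in marginal zone cells in 5 of 6 libraries, the 3′ replicate 1 library being the exception, by a log2 of -0.61 ± 0.16 (edgeR adjusted p = 0.00462). Without the standard 5′ replicate 2 library it was -0.47 with an adjusted p of 0.0937. Median counts per cell were 368 to 673 in marginal zone and 401 to 524 in follicular cells, and follicular cells of the standard 5′ replicate 1 library numbered 16.

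Among T cells, 399 antigen-experienced cells (S100a4, S100a6, Lgals1 or Ccl5, no Ccr7 or Lef1) were set against 1191 naive cells (the reverse). Ms4a4b was 1666, 1867, 2113, 2656, 2462 and 2479 CPM in experienced cells, against 1537, 1891, 1483, 2120, 1760 and 1922 CPM in naive cells, in the same order. It was higher in experienced cells in 5 of 6 libraries, by a log2 of 0.23 ± 0.09 (edgeR adjusted p = 0.045, where 19.6% of 924 genes passed). This call was lost without any of 4 libraries, both 3′ and both standard 5′ ones (log2 0.15 to 0.22).

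Ms4a6b did not pass between experienced and naive cells (log2 -0.16 ± 0.12, edgeR adjusted p = 0.411). Between CD8 and CD4 T cells neither gene passed, with a log2 of -0.10 ± 0.10 for Ms4a4b and -0.15 ± 0.17 for Ms4a6b, where 13.8% of 390 genes passed. The standard 5′ replicate 1 library had 8 CD4 cells and was left out of the CD4 group in that fit.

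**Figure D3:**
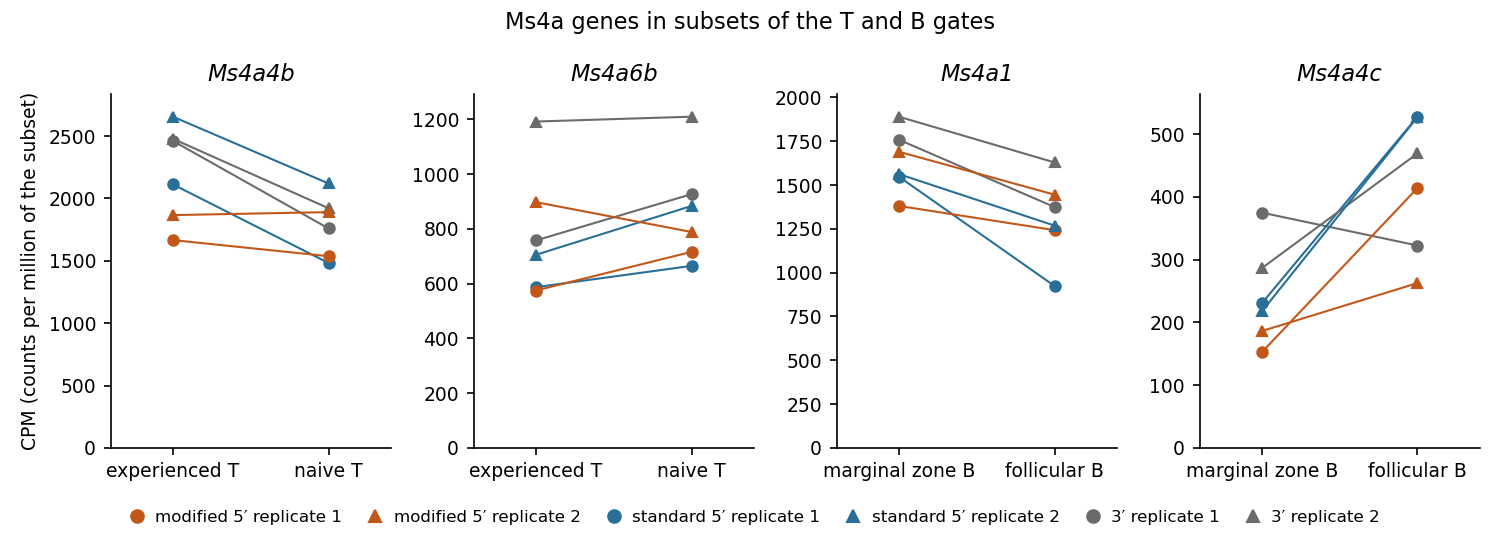
Level (CPM) of Ms4a4b and Ms4a6b in experienced and naive T cells and of Ms4a1 and Ms4a4c in marginal zone and follicular B cells, 1 line per library. The classes are set by marker counts and may be mixed. Ms4a1 is higher in marginal zone cells in 6 of 6 libraries and Ms4a4c lower in 5 of 6.

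In the myeloid gate, Ms4a6b and Ms4a6c were often detected in the same cells. Cells with both numbered 3, 8, 2, 12, 11 and 19 in modified 5′ replicates 1 and 2, standard 5′ replicates 1 and 2, and 3′ replicates 1 and 2, against 0.8, 5.2, 2.0, 6.1, 5.1 and 11.3 if detection were independent. The overlap was not particular to this pair. In the same order, Ms4a4c with Ms4a6b numbered 1, 7, 3, 8, 6 and 11, against 0.2, 2.3, 1.6, 2.9, 2.1 and 6.0. Ms4a4c with Ms4a6c numbered 1, 7, 4, 11, 6 and 16, against 0.5, 4.0, 3.5, 5.4, 2.6 and 8.2. Of the counts in this gate, 109 of 136 for Ms4a6b and 144 of 210 for Ms4a6c lay in monocytes. The part in these overlaps of this mixture of cells, or of reads assigned between copies, was not tested. In the T gate, cells with both Ms4a4b and Ms4a6b numbered 88, 159, 19, 154, 150 and 238, close to the 83.5, 148, 15.7, 145, 140 and 218 of independence. In the B gate, Ms4a1 and Ms4a4c were seen together in 65, 105, 10, 95, 128 and 151 cells, against 61.6, 103, 13.0, 101, 126 and 169.

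For each member, the genes most like it were read from the Pearson correlation of log2(CPM + 10) over the 24 library-by-gate sums, which share 6 libraries and 4 gates, among 3630 genes with a mean of at least 50 CPM. Ms4a1 was most like Ly6d (r = 0.991), Iglc3, Bank1, Blk and Ebf1 (0.964), and Ms4a4b most like Lck (0.967), Skap1, Hsd11b1, Sh2d1a and Txk (0.947). Ms4a4c was most like Plac8 (0.964), Pou2f2, Blvrb, Sgms1 and Plekho1 (0.925), and Ms4a6c most like Mgst1 (0.891), Wfdc17, Ccdc88a, Cd300a and Ifitm3 (0.884). Ms4a6b had no gene as close: Vsir reached 0.869, followed by Ramp1, Emb, Slfn1 and 1700030N03Rik (0.837). Between members, r was -0.83 for the near copies Ms4a4b and Ms4a4c, 0.30 for Ms4a6b and Ms4a6c, and 0.67 for Ms4a4c and Ms4a6c.

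Of the 16 other genes of the family list, 12 had any count and 4 (Ms4a5, Ms4a10, Ms4a13 and Ms4a18) had none. The related genes Tmem176b and Tmem176a had 492 and 338 counts, and Ms4a12 had 181, Ms4a4a 127, Ms4a7 62, Ms4a6d 61, Ms4a8a 28, Ms4a3 19, and Ms4a2 and Ms4a4d 13 each. Of the kept counts of Ms4a4a, 58 of 118 lay in the myeloid gate and 53 in monocytes, and all 14 myeloid counts of Ms4a8a and 17 of 19 of Ms4a6d were in monocytes too. Ms4a12 had 92 of 175 and Ms4a7 30 of 58 kept counts in the B gate. Tmem176a and Tmem176b were the only list genes tested between gates, and both were higher in myeloid than in T cells (log2 5.94 ± 0.36 and 5.90 ± 0.29), in B cells (6.43 ± 0.34 and 5.62 ± 0.25) and in NK cells by edgeR, where 22.4%, 19.7% and 16.5% of all genes were higher.

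Of the list of CD20 and B cell receptor genes, 10 were no gate marker, and all 10 were higher in B than in T cells by edgeR (24.6% of all genes were), with a median log2 of 6.49 beside 0.01 over all genes (6.54 from pooled levels, with the gene at 0 in T cells set to its 3-count limit). The fitted changes were largest for the kinases Syk, Btk and Blk, which had 1, 0 and 3 counts in the T gate, so no order is read from them. For Btk the 3-count limit gives a pooled log2 of at least 6.59, and the fitted value is no measured fold. Of 13 T cell surface genes that were no marker, 11 were tested, and 10 were lower in B cells (24.3% of all genes were), with a median of -5.78 (-5.96 from pooled levels with 1 gene at its limit), with the largest fitted changes in Thy1, Cd6 and Il7r. Cd6 had no count in the B gate, and at its 3-count limit (log2 -7.48) it stood behind Thy1 (-8.76), Il7r (-7.78), Lat (-7.69) and Cd28 (-7.54) in pooled levels.

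The protocol comparisons ask whether a member is captured at another level by one chemistry than by another. Here levels are TMM-scaled CPM, summed over all kept cells, and the fit spans 11546 genes in 6 libraries. Scaling matters for these comparisons: TMM adds a log2 of 0.39 to the standard 5′ against 3′ difference and 0.36 to modified 5′ against 3′, and changes modified against standard 5′ by -0.03. In such sums, more cells of a type and more counts per cell cannot be told apart. B gate cells made up 37.3% to 47.8% and T gate cells 18.6% to 25.4% of kept cells, with the standard 5′ replicate 1 library lowest in B and highest in T cells.

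Across all cells no member passed in any of the 3 comparisons. In modified 5′, standard 5′ and 3′ libraries, replicates 1 and 2, Ms4a1 was 880 and 869, 796 and 830, and 738 and 741 TMM-scaled CPM. The 3 protocols did not overlap, yet the differences of a log2 of 0.10 ± 0.18 (modified against standard 5′), 0.24 ± 0.18 (modified 5′ against 3′) and 0.14 ± 0.18 (standard 5′ against 3′) missed the threshold (edgeR adjusted p = 1, 0.375 and 0.609). Over all genes, 0%, 18.4% and 23.3% passed in these comparisons. On plain CPM the order of Ms4a1 was turned: the 3′ libraries had the highest levels, with means of 805, 733 and 869 CPM for modified 5′, standard 5′ and 3′.

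Ms4a4b was 622 and 720 in modified 5′, 654 and 872 in standard 5′, and 568 and 649 TMM-scaled CPM in 3′ libraries. Both standard 5′ libraries lay just above the 3′ ones, and the modified 5′ libraries overlapped with either. Its differences were a log2 of -0.19 ± 0.21, 0.14 ± 0.21 and 0.33 ± 0.21 in the same order of comparisons (edgeR adjusted p = 0.999, 0.672 and 0.272). The other 3 members differed by -0.29 to 0.13 on the log2 scale, and Ms4a4c overlapped between all protocols. For modified against standard 5′ no gene of any kind passed with edgeR, 459 had an unadjusted p under 0.05, and DESeq2 called 1.

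**Figure D4:**
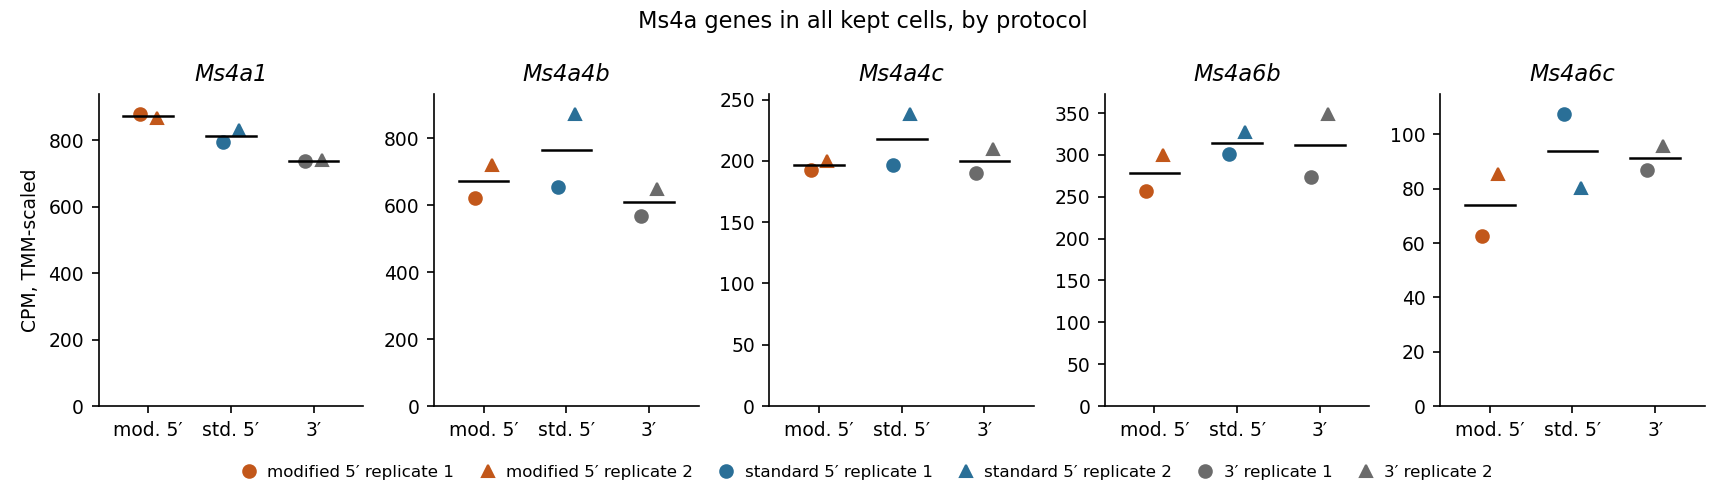
TMM-scaled CPM of each Ms4a gene over all kept cells in modified 5′, standard 5′ and 3′ libraries (circles replicate 1, triangles replicate 2, black line the mean of 2). Ms4a1 runs in order from modified 5′ to 3′ without overlap, with differences that missed the threshold, and Ms4a4c overlaps between all protocols.

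Other genes of the same cells did move between chemistries. Of 17 genes of the CD20 and B cell receptor list, 5 were higher in standard 5′ than in 3′ libraries and none lower (12.5% of all genes were higher; median log2 0.39 beside -0.01 over all genes), with Cd81 at 1.29 ± 0.23, Cd79a at 1.14 ± 0.24 and Cd37 at 1.00 ± 0.22. Of 17 T cell surface genes, 9 were higher and none lower (median 0.88), with Thy1 at 2.17 ± 0.23, Lat at 1.60 ± 0.25 and Cd3e at 1.54 ± 0.21. Modified 5′ against 3′ gave 4 and 9 higher genes (10.2% of all genes were), led by Cd79a (1.13 ± 0.24), Cd79b (1.00 ± 0.25) and Cd81 (0.97 ± 0.22) and by Thy1 (1.95 ± 0.23), Cd3e (1.23 ± 0.21) and Tnfrsf18 (1.08 ± 0.22). Modified against standard 5′ gave none. Of the 6 family list genes tested, Tmem176b alone passed, higher in standard 5′ than in 3′ libraries by 1.34 ± 0.30 (edgeR adjusted p = 0.0134).

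Within the B gate the picture changed for the 2 members that B cells hardly express. Ms4a4b in B cells was 53.4 and 38.0 TMM-scaled CPM in modified 5′ libraries, 17.4 and 35.2 in standard 5′ libraries, and 104 and 84.1 in 3′ libraries. Both 3′ libraries lay above all 4 of the 5′ libraries. The difference was a log2 of -1.54 ± 0.34 for standard 5′ against 3′ (edgeR adjusted p = 2.05e-04) and -1.07 ± 0.29 for modified 5′ against 3′ (adjusted p = 0.00204). In these comparisons 31.1% and 28.9% of 8774 genes passed.

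Ms4a6b in B cells showed a like pattern from fewer counts. It was 17.8 and 21.5 TMM-scaled CPM in modified 5′, 8.70 and 32.2 in standard 5′, and 41.4 and 48.8 in 3′ libraries. Again both 3′ libraries were above the 5′ ones. The modified 5′ difference from 3′ passed (log2 -1.17 ± 0.37, edgeR adjusted p = 0.00947), the standard 5′ difference did not (-0.69 ± 0.39, adjusted p = 0.167), and modified against standard 5′ passed for no member, where 0.171% of genes passed.

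These calls rest on small counts, and single libraries decide some of them. Ms4a4b had 24, 30, 2, 24, 80 and 93 counts in the B gates of modified 5′, standard 5′ and 3′ replicates 1 and 2, and Ms4a6b 8, 17, 1, 22, 32 and 54. Without the standard 5′ replicate 2 library, which leaves the library with 2 counts, the standard 5′ call of Ms4a4b had a log2 of -2.35 and an adjusted p of 0.0592. Without the modified 5′ replicate 2 library, the modified 5′ call of Ms4a4b was -0.73 (adjusted p = 0.196), and DESeq2 gave -1.05 (adjusted p = 0.101). The call of Ms4a6b was lost without either modified 5′ library or without the 3′ replicate 2 library (log2 -1.27 to -0.94). Within replicates 1 and 2, the Ms4a4b difference was -2.51 and -1.23 for standard 5′ against 3′ and -0.94 and -1.13 for modified 5′ against 3′, on the log2 scale of TMM-scaled CPM + 1.

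Other measures were read beside this result. The B level of Ms4a4b, as a percentage of the T level of the same library, was 2.90% and 1.84% in modified 5′, 0.953% and 1.46% in standard 5′, and 6.29% and 4.75% in 3′ libraries. Of 13 other T cell surface genes, 2 (Cd5 and Cd27) also had both 3′ libraries above all 5′ libraries by this measure and none had both below. Genes with no B gate count in any library, such as Cd6, could not show either pattern. Cd28, Thy1, Lat and Il7r had 0 to 6 B gate counts per library. The 2 of 13 therefore says little of how common the pattern is. The list summed to 15.3% and 14.3%, 9.12% and 13.4%, and 15.8% and 14.5% in the same order, so that modified 5′ and 3′ libraries overlapped. B cells with counts of both Ms4a4b and its near copy Ms4a4c numbered 4 and 2 in modified 5′, 0 and 2 in standard 5′, and 24 and 26 in 3′ libraries, against 3.1 and 3.6, 0.2 and 3.5, and 15.5 and 15.0 if detection were independent. The part in this result of free T cell RNA or of reads assigned between copies was not tested.

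The other 3 members did not pass in the B gate. Ms4a1 was 1603 and 1625, 1713 and 1575, and 1474 and 1502 TMM-scaled CPM in modified 5′, standard 5′ and 3′ libraries, with differences from -0.02 to 0.14. Ms4a4c differed by -0.24 to 0.04, and Ms4a6c by -0.60 ± 0.30 for standard 5′ and -0.35 ± 0.26 for modified 5′ against 3′ on the log2 scale. Of the 10 receptor list genes that are no marker, 3 were higher in standard 5′ than in 3′ B cells (Cd81, Cd37 and Cd72) and 2 in modified 5′ (Cd81 and Cd37), and none was lower; of all genes 14.2% and 13.4% were higher. Tnfrsf18, the gene of the GITR receptor, was higher in B cells of both 5′ protocols, by 1.18 ± 0.35 in modified 5′ and 1.11 ± 0.39 in standard 5′ (edgeR adjusted p = 0.00617 and 0.0213), the opposite direction to Ms4a4b. It rests on 25 and 33, 3 and 34, and 17 and 22 counts in modified 5′, standard 5′ and 3′ libraries. The alternative settings were not read for this gene.

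In the T gate no member passed. Ms4a4b was 1889 and 2125 in modified 5′, 1833 and 2427 in standard 5′, and 1833 and 1921 TMM-scaled CPM in 3′ libraries, and the protocols overlapped (log2 -0.10 ± 0.22 for modified against standard 5′, 0.10 ± 0.22 for modified 5′ and 0.20 ± 0.22 for standard 5′ against 3′). Ms4a6b was 836 and 905, 678 and 836, and 909 and 1095, with the 3′ libraries on top and differences of -0.20 ± 0.23 and -0.38 ± 0.23 from them that did not pass. Over the 6118 genes tested, 0.0817%, 19.1% and 22.1% passed. Ms4a1 was too low in T cells to be tested.

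**Figure D5:**
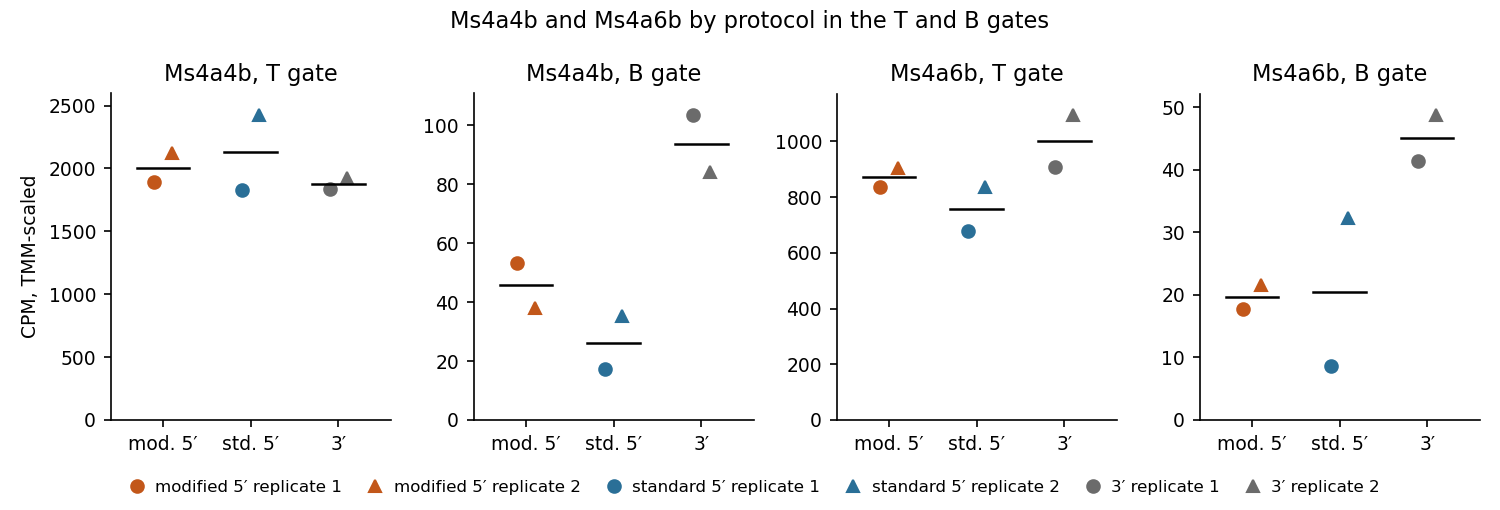
TMM-scaled CPM of Ms4a4b and Ms4a6b in the T gate and in the B gate by protocol (circles replicate 1, triangles replicate 2, black line the mean of 2). In the B gate both 3′ libraries lie above all 5′ libraries for either gene, and in the T gate the protocols overlap for Ms4a4b.

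Whether the protocol difference differed between T and B cells was tested as an interaction. For standard 5′ against 3′, the log2 difference of Ms4a4b was higher in T than in B cells by 1.94 ± 0.32 (edgeR adjusted p = 3.11e-06), 1 of 5 genes that passed among 8090 (0.0618%). Without the standard 5′ replicate 2 library it was 2.37 with an adjusted p of 0.521, and without any other library it passed with 1.68 to 2.11. Ms4a6b (0.46 ± 0.37), Ms4a4c (0.16 ± 0.37) and Ms4a6c (-0.33 ± 0.59) did not pass. For modified against standard 5′ no member passed (Ms4a4b -0.68 ± 0.37, adjusted p = 1), where 0.0494% of genes did.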

How the data were processed

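The authors deposited, for each of the 6 libraries, a matrix of raw counts per gene and cell barcode, as whole numbers without normalization. Per the labels' protocols, libraries were made with 10x Genomics kits and sequenced as unfragmented cDNA on a Nanopore instrument. The build mm10 and Seurat are named per the submitters' processing notes; not given in the sources used here are the aligner, the annotation, the use of strand and whether molecular identifiers were collapsed. A barcode was kept as a cell with 200 or more genes and a mitochondrial share of counts of 20% or less. No doublet caller was run, since a gate drops cells with counts of other classes; doublets can remain.

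Counts were summed per library, over all kept cells or a gate (sums of fewer than 10 cells left out), and tested with edgeR 4.0.16 in R 4.3.3 (glmQLFit and glmQLFTest, TMM, filterByExpr, Benjamini-Hochberg over all genes tested, threshold 0.05). Protocol fits used all 6 libraries and no replicate block, gate and subset fits used the library as a block. Exact binomial limits had a level of 95%, and a count of 0 was read against 3 counts. The model was tested on simulated data. DESeq2 1.42.0, limma 3.58.1 (loaded by edgeR), Python 3.11.15, numpy 2.4.6, scipy 1.17.1, pandas 2.3.3, Biopython 1.88 and matplotlib 3.10.9 were used. Alternatives were median-ratio (RLE) factors, DESeq2, no filter, a replicate block, each library left out, all barcodes, no haemoglobin, gates of 3 counts or with 1 foreign count, and thinning to 250 counts.

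Same-numbered libraries deviated together: the correlation of their deviations from the protocol means over 11546 genes was 0.456 (standard 5′ and 3′), 0.391 (modified 5′ and 3′) and 0.241 (modified and standard 5′). Their extraction text is shared too, so a pairing by replicate number was fitted as an alternative. The main protocol fits, and the shares of genes printed beside the members, do not use this pairing. The members, the gates and the gene lists were chosen with earlier results of these data known. Named genes were all 5 members, every family list gene with at least 10 counts, the 3 largest changes of each list past the threshold, and the 5 genes most like each member by correlation. Of the T cell surface list, 1 gene is not reported by name here.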

Additional observations from a re-analysis of the deposited data

Results flagged for a closer look

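In the myeloid gate, the standard 5′ replicate 1 library had a Ms4a6c level of 1709 CPM, far above the next library at 780 CPM, and was flagged because its gap to the nearest library was large for the range of 6. It rests on 17 counts in 18 cells. Of 18 groups of 6 values checked, this 1 was flagged, and chance flags about 1 in 20 groups.

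The standard 5′ against 3′ difference of Ms4a4b was flagged because the test of the difference itself passed: it was higher in T than in B cells by a log2 of 1.94. The B gate holds 2 and 24 counts of Ms4a4b in the standard 5′ libraries, against 80 and 93 in the 3′ libraries.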

How the results depend on the processing

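Of 992 values of members under alternatives, over 88 member results, 964 kept their direction or stayed uncalled on the same side of the threshold, 20 lost and 8 gained a call, and none with a call changed sign. Counts of genes past the threshold moved more. DESeq2 called, for standard 5′ against 3′, modified against standard 5′ and modified 5′ against 3′, 1584, 1 and 1258 genes in all cells (edgeR 2689, 0 and 2124), 968, 0 and 890 in B cells (2731, 15 and 2537), and 369, 0 and 334 in T cells (1354, 5 and 1169). The replicate block, which pairs libraries by number, gave 4127, 21 and 3820 genes in all cells and changed no call of a member. Without a filter on low counts, modified against standard 5′ gave 65 genes in all cells and 14 in T cells. RLE factors gave 5 genes in B cells and 2 in T cells for modified against standard 5′. Gates of 3 counts gave 2 genes there in T cells, and 2 and 1 for the interactions of standard 5′ against 3′ and modified against standard 5′ (5 and 4 in the report's fits), and gates with 1 foreign count gave 2, 9 and 1.

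Between gates, no filter gave 3597 genes for B against T (1300 with it), 1272 for NK against T (516), 1891 for NK against B (788), 3337 for myeloid against T (1249), 3425 for myeloid against B (1163) and 1105 for myeloid against NK (653). The replicate 1 libraries alone gave 531, 218, 336, 469, 428 and 208 in the same order, from fewer samples, and replicate 2 alone gave 1769 for myeloid against B. Thinning lowered shares of positive cells to 30.0% (Ms4a1, B), 36.8% and 48.2% (Ms4a4b, T and NK), 7.84% and 7.10% (Ms4a4c, B and myeloid), 18.8% and 11.2% (Ms4a6b, T and myeloid) and 18.5% (Ms4a6c, myeloid). The cause of the other shifts was not tested.

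With a library left out, standard 5′ against 3′ gave 221 to 2763 genes in all cells, 455 to 2765 in B cells and 163 to 1411 in T cells, each lowest without standard 5′ replicate 2; without 3′ replicate 1 they were 966, 1677 and 692. Modified 5′ against 3′ gave 416 to 2216, 1315 to 2549 and 551 to 1205, lower without 3′ replicate 1 or either modified 5′ library. Modified against standard 5′ gave 0 to 1, 6 to 33 and 4 to 31. The gate pairs, in the order above, gave 1043 to 1979, 419 to 716, 633 to 1030, 956 to 1789, 886 to 1619 and 510 to 885, and the interactions 3 to 6 and 3 to 4. Experienced against naive T cells gave 139 to 186, CD8 against CD4 T cells 15 to 53 (54 with all libraries) and marginal zone against follicular B cells 102 to 186 (160). A lone library of a protocol is assumed to vary like the others. Depth limits the NK and myeloid sums most. With 2 libraries per protocol, differences of the size fitted for Ms4a1 in all cells did not pass.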
